A study of Schmidtea mediterranea with 100 samples.

Results

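The comparison set the bulk RNA-seq library of the S/G2/M gate against that of the G1 gate, with 1 library each. CPM are reads of a transcript relative to the total reads of its library, here after the scaling given below. The members of the comparison were all transcripts that reached 5 CPM in either library. This left 11895 of the 67386 transcripts in the table (11998 without the scaling). Of these, 9382 reached that level in both gates, 864 in S/G2/M only and 1649 in G1 only. Among the members, 108 carried a gene name and the remaining 11787 were known by identifier alone.

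Both libraries came from wild-type animals of CIW4, an asexual clonal strain of the planarian flatworm Schmidtea mediterranea raised on beef liver. Whole animals were dissociated, the FACS gates were drawn on DNA content, read from Hoechst, and on RNA content, read from pyronin Y. The labels give no genetic or drug treatment for either group, and the age and number of animals behind each library were not stated. Bulk libraries of 2 further gates, RNA-low and PM, served as context, and the labels do not spell out PM.

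Adult planarians keep a population of proliferating stem cells, the neoblasts, which replace all differentiated tissues. A neoblast that replicates its DNA exceeds the unreplicated DNA content and falls into S/G2/M. Cells with unreplicated DNA can be neoblasts in G1 as well as progeny that have left the cell cycle. Progression through S phase needs the replicative helicase and the sliding clamp, and entry into mitosis needs B-type cyclins. Epidermal progeny switch on the prog-1 and prog-2 families soon after leaving the stem cell state.

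The S/G2/M library held 74968402 counted reads and the G1 library 54070578. Reads were found for 34757 transcripts in S/G2/M and 51611 in G1. Low counts piled up at 22 reads per transcript in S/G2/M and at 10 in G1, and these numbers served as a rough estimate of the reads per starting fragment. On that basis the libraries held 3407655 and 5407058 estimated fragments. Ribosomal RNA took 21.9% of reads in S/G2/M and 16.8% in G1. Levels are CPM scaled by the trimmed mean of M values method (TMM), in reads and not corrected for transcript length. They are shares of a library and not amounts per cell.

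A transcript was called higher or lower in S/G2/M when the log2 ratio, with 0.5 CPM added to each level, reached 2-fold and the exact 95% binomial interval on reads excluded equality. With 1 library per gate there was no replicate check and no test across gates. Printed intervals are of the log2 CPM ratio on estimated fragments, and they cover counting error only. In sorted bulk samples, fewer cells of a type and less RNA per cell cannot be told apart.

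Of the 11895 transcripts, 3668 (30.8%) were called, with 1499 (12.6%) higher and 2169 (18.2%) lower in S/G2/M. The 2 sides differed in shape as well as in number. Among those higher, 153 reached 4-fold and 5 reached 8-fold. Among those lower, 769 reached 4-fold and 233 reached 8-fold. The median log2 ratio of all members was 0.07, the quartiles were -0.69 and 0.66, and 5284 members (44.4%) lay within 1.5-fold of equality. Higher transcripts made up 40.9% of calls with TMM, 53.8% with median-of-ratios scaling, 19.5% with library totals and 24.3% with totals without ribosomal RNA. These scalings moved the median log2 ratio by 0.16, -0.31 and -0.23, so the balance between directions was not fixed by the data. Lists below are therefore read against the median of all members.

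**Figure D1:**
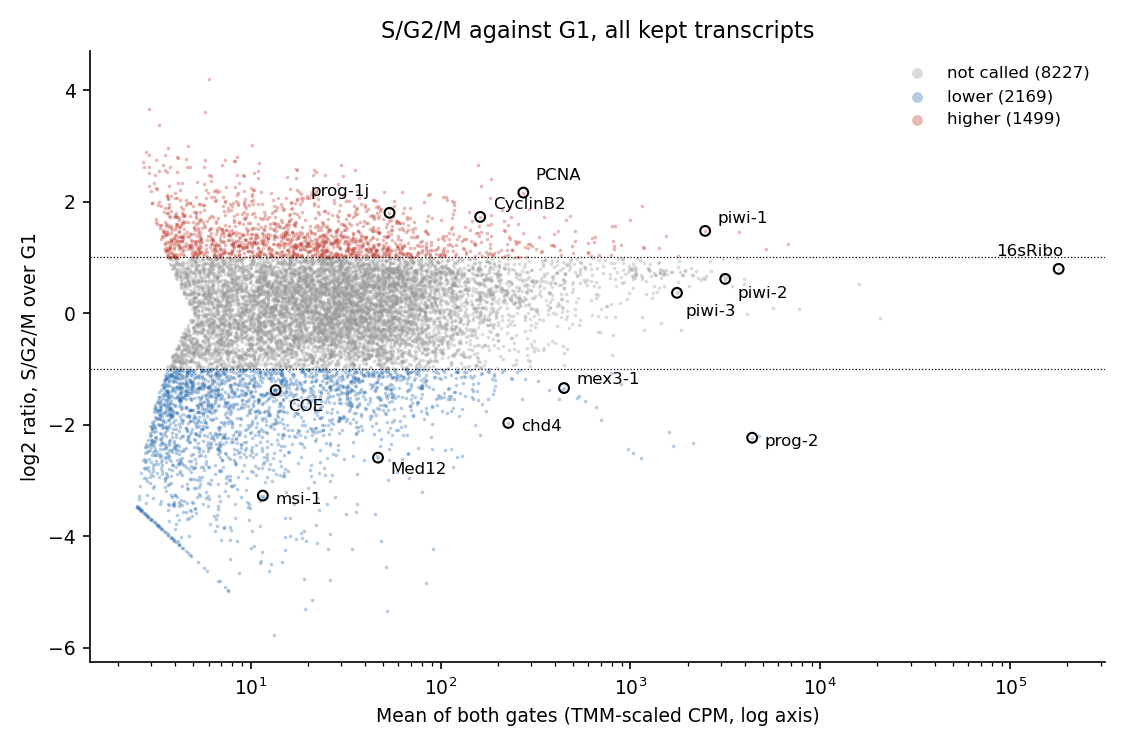
Log2 ratio of S/G2/M over G1 (y axis) against the mean CPM of both gates (x axis, log scale) for the 11895 members, 1 point each, with circles around 13 named transcripts and dotted lines at 2-fold. Calls below the lower line reach further from 0 than those above the upper line, and PCNA and msi-1 lie far apart on the 2 sides.

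Genes of DNA replication and mitosis were called higher in S/G2/M, the direction its label gives. PCNA encodes the sliding clamp that holds DNA polymerase on its template. It stood at 99.4 CPM in G1 and 446 in S/G2/M, with 40.7 in RNA-low and 36.6 in PM. Its log2 ratio of 2.16 (interval 2.03 to 2.31) ranked 93 from the highest, and it was the only named transcript among the 100 highest ratios. For mcm2, a subunit of the replicative helicase, levels were 68.2 CPM in G1 and 201 in S/G2/M, against 9.12 in RNA-low and 12.9 in PM. Its log2 ratio was 1.55 (interval 1.38 to 1.74), at rank 445. CyclinB2, which encodes a mitotic cyclin, was at 74.8 CPM in G1 and 249 in S/G2/M (log2 ratio 1.73, interval 1.56 to 1.90, rank 305). All 3 were highest in S/G2/M and second in G1 among the 4 gates. For each read of CyclinB2 there were 1.33 reads of PCNA in G1 and 1.8 in S/G2/M, a ratio that no scaling affects.

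DNA repair genes moved less. The level of ATM, which encodes a kinase of the DNA damage response, was 29.6 CPM in G1 and 52.1 in S/G2/M (log2 ratio 0.81, interval 0.49 to 1.13). Ku80, whose product binds broken DNA ends, was at 78.6 and 114 CPM (log2 ratio 0.53). The apoptosome gene apaf1 was at 81.9 CPM in G1 and 45.1 in S/G2/M (-0.85). None of the 3 kept members of this list was called with TMM, where 30.8% of all members were. With 3 members, no difference from that share is drawn. Apaf1 passed 2-fold with library totals (-1.17) and with totals without ribosomal RNA (-1.08).

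The neoblast genes differed among themselves. PIWI proteins bind small RNAs that silence transposons, and piwi-1 is the standard neoblast marker in planarians. It stood at 1309 CPM in G1 and 3640 in S/G2/M (log2 ratio 1.47, interval 1.43 to 1.52). Bruli, an RNA-binding protein gene needed for neoblast maintenance, was at 383 and 806 CPM (1.07, interval 0.99 to 1.16), and its ratio was 0.75 with library totals and 0.84 with totals without ribosomal RNA. The other PIWI genes were not called, with piwi-2 at 2495 CPM in G1 and 3820 in S/G2/M (0.61) and piwi-3 at 1537 and 1980 CPM (0.36). In all, 2 of 4 pan-neoblast members (50.0%) were called higher and none lower, against 12.6% and 18.2% of all members. The list median of 0.84 lay 0.78 above that of all members. The reads of piwi-1 per read of piwi-3 were 0.852 in G1, 1.84 in S/G2/M, 0.705 in RNA-low and 0.555 in PM. S/G2/M was thus the one gate of the 4 in which piwi-1 had more reads than piwi-3.

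The PIWI pathway gene tdrd112, which encodes a Tudor domain protein, and the chromatin remodeller gene chd4 went in opposite directions. Levels of tdrd112 were 228 CPM in G1 and 536 in S/G2/M (log2 ratio 1.23, interval 1.13 to 1.34), against 185 in RNA-low and 108 in PM. With library totals its ratio was 0.91. For chd4, a Mi-2 family gene required in planarians for neoblast progeny to differentiate, levels were 362 CPM in G1 and 92.2 in S/G2/M, with 611 in RNA-low and 285 in PM. Its log2 ratio was -1.97 (interval -2.16 to -1.79), and S/G2/M was the lowest of the 4 gates. Bmi-1, which encodes a Polycomb protein, was at 12.9 CPM in G1 and 29.6 in S/G2/M (1.17), and at 0.86 and 0.95 with the 2 scalings by totals.

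**Figure D2:**
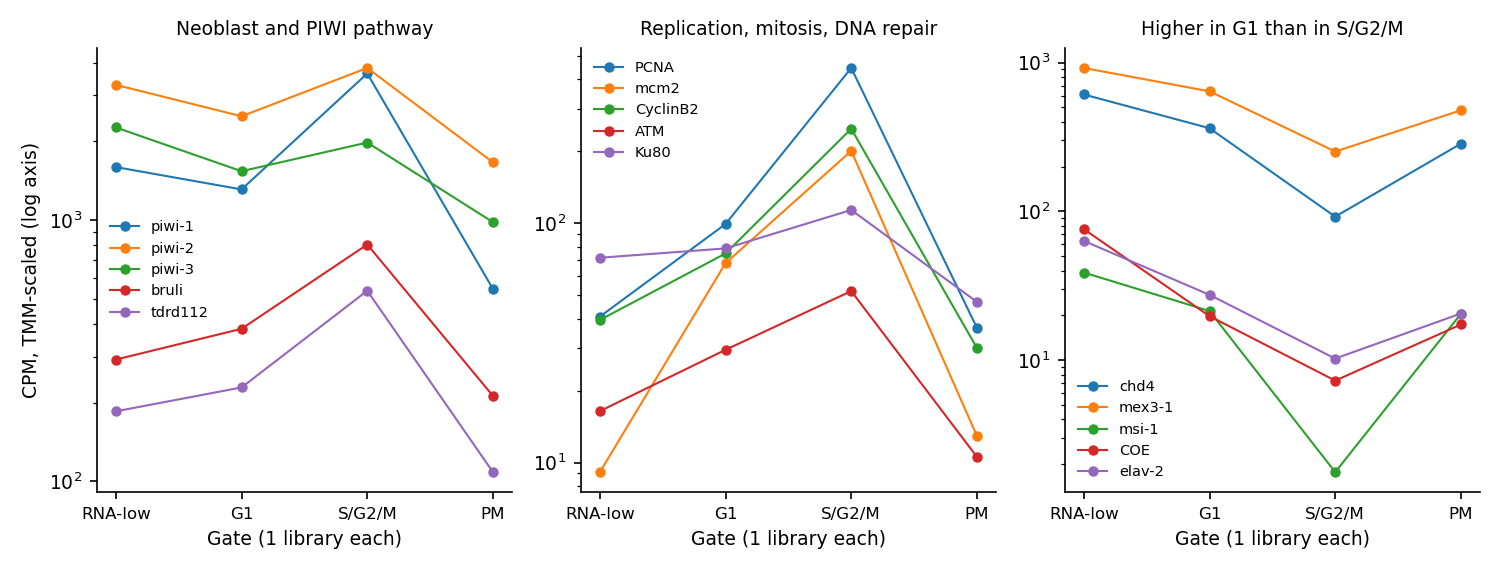
CPM (y axes, log scale) in the 4 gates (x axes, 1 library each) for 15 named transcripts in 3 panels, with thin lines joining the values of a transcript. PCNA, mcm2, CyclinB2, bruli and tdrd112 peak in S/G2/M, while chd4, mex3-1, msi-1, COE and elav-2 have their lowest level there.

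The early epidermal progeny families were split. All 18 transcripts passed the filter, of which 10 (55.6%) were called lower and 4 (22.2%) higher in S/G2/M. Among all members these shares were 18.2% and 12.6%. The median log2 ratio of the 18 transcripts was -1.97. All 7 prog-2 members were called lower, from -2.44 for prog2b to -1.82 for prog2g. The family summed to 25610 CPM in G1 and 5380 in S/G2/M, a 4.76-fold difference. Of the 11 prog-1 members, 3 were called lower, 4 higher and 4 not called. The 3 lower members had nearly the same ratio, with prog1c at -2.61, prog-1 at -2.59 and prog1a at -2.505. Levels of prog-1 itself were 1961 CPM in G1 and 325 in S/G2/M, against 195 in RNA-low and 1405 in PM.

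The 4 higher members, described after their values were seen, had at most 47 reads in RNA-low, and so did the uncalled prog-1h, prog1g and prog-1b, at 7, 30 and 36 reads. For prog-1j there were 23.8 CPM in G1 and 83.9 in S/G2/M, with 10.7 in PM and 0.421 in RNA-low (log2 ratio 1.799, interval 1.52 to 2.13). For prog-1e the levels were 27.8 CPM in G1 and 77.6 in S/G2/M, with 18.8 in PM and 0 reads in RNA-low (1.46, interval 1.18 to 1.77). The other 2 were prog-1d, at 8.02 and 22.9 CPM (1.45), and prog-1f, at 7.28 and 19.7 CPM (1.38). S/G2/M was the highest gate for each of the 4. These members kept their call in all 5 other scalings, as did the 10 lower ones. Together the 4 summed to 66.9 CPM in G1 and 204 in S/G2/M, where the 18 transcripts summed to 29657 and 6405 CPM.

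Between these groups, prog1g was just short of 2-fold at 49.0 CPM in G1 and 93.6 in S/G2/M (0.93), and reached it with median-of-ratios scaling (1.08). Neither prog-1b (0.25) nor prog-1i (0.23) was called, and both were below 0 with library totals. The remaining member, prog-1h, was at 72.5 CPM in G1 and 39.0 in S/G2/M (-0.89), and passed 2-fold with library totals (-1.20) and with totals without ribosomal RNA (-1.12). Reads of prog-1j per read of prog-1 were 0.0121 in G1, 0.259 in S/G2/M, 0.00215 in RNA-low and 0.00762 in PM. The members are close relatives whose reads the counting could have divided, so levels of single members are uncertain.

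**Figure D3:**
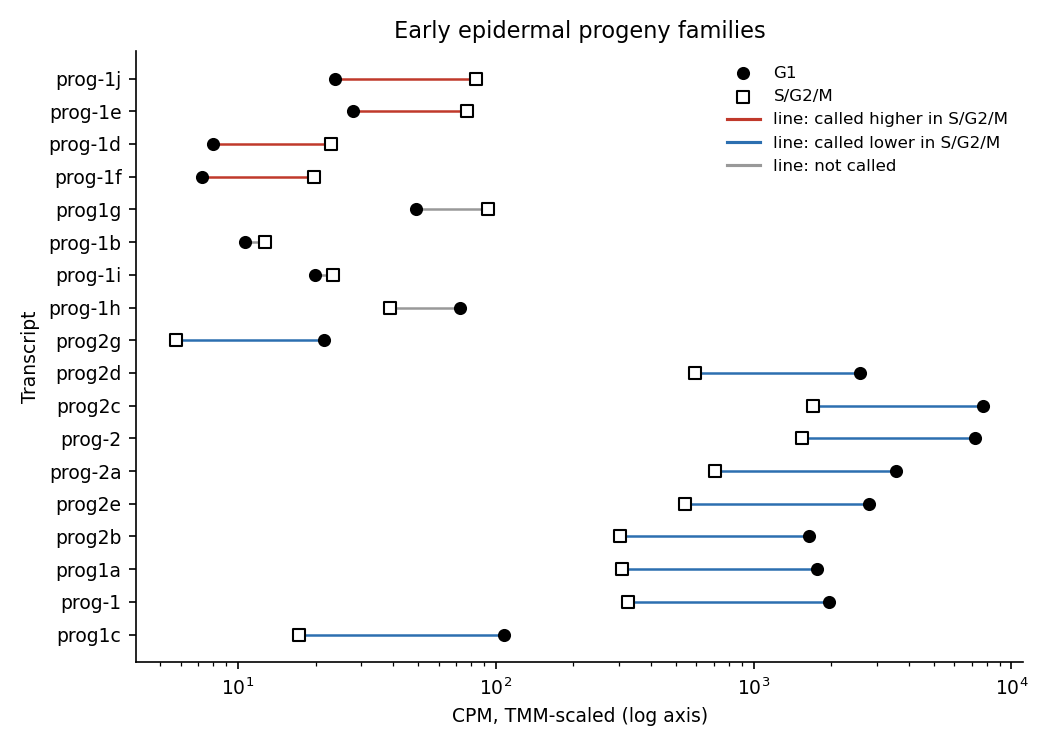
CPM (x axis, log scale) of the 18 early epidermal progeny transcripts (y axis) in G1 (filled circles) and S/G2/M (open squares), with lines coloured by call. The squares lie to the left of the circles for all 7 prog-2 members and for prog-1, prog1a and prog1c, and to the right for prog-1d, prog-1e, prog-1f and prog-1j.

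RNA-binding regulators were called lower in S/G2/M in 3 of 4 members, against 18.2% of all members. The largest difference was in msi-1, a Musashi family gene, at 21.4 CPM in G1 and 1.77 in S/G2/M, with 38.9 in RNA-low and 20.5 in PM. Its log2 ratio of -3.27 (interval -5.33 to -2.42) was the lowest of the 108 named transcripts and rested on 117 reads in S/G2/M. For mex3-1, which in planarians promotes the progenitor state over self-renewal, levels were 641 CPM in G1 and 253 in S/G2/M (-1.34, interval -1.46 to -1.23), with 921 in RNA-low and 478 in PM. Its relative mex3-3 was at 8.51 and 2.41 CPM (-1.63), while msi-2 was at 16.4 and 9.91 CPM (-0.70) and passed 2-fold with library totals only (-1.002). The list median was -1.49. Both msi-1 and mex3-3 passed the filter through G1 only.

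The neuronal regulators COE and elav-2 were both called lower, where 18.2% of all members were. COE was at 19.8 CPM in G1 and 7.29 in S/G2/M, and elav-2 at 27.5 and 10.3 CPM. Both had a log2 ratio of -1.38, with intervals of -2.17 to -0.77 for COE and -2.02 to -0.86 for elav-2, and both were highest in RNA-low, at 76.1 and 63.4 CPM.

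Among developmental transcription factors, 12 of 37 named members passed the filter, of which 6 (50.0%) were called lower and 1 (8.33%) higher, against 18.2% and 12.6% of all members. The homeobox gene DLL-2 was at 6.21 CPM in G1 and 1.07 in S/G2/M (log2 ratio -2.09, interval -4.98 to -0.98). Its 71 reads in S/G2/M lay just above the floor of 3 estimated fragments (0.999 CPM). The paired box gene PAX5-1 was at 50.7 CPM in G1 and 13.3 in S/G2/M (-1.89, interval -2.45 to -1.45), with 55.4 in PM and 31.3 in RNA-low. Further calls were a FoxJ1-3 transcript at -1.74 (128 reads in S/G2/M) and the homeobox gene meis at -1.40 (162 reads). Also called lower were the zinc finger gene castor at -1.24 and hnf6 at -1.10. With median-of-ratios scaling hnf6 fell short of 2-fold (-0.95). The single member called higher was the proneural gene ascl-1, at 3.43 CPM in G1 and 11.2 in S/G2/M (1.58, interval 0.91 to 2.63), yet its highest level was 26.7 CPM in RNA-low. Among the members not called, hb-2, soxB, usf and a klf transcript lay from -0.37 to 0.52, and soxB and usf changed sign between scalings. The list median was -0.73. DLL-2, the FoxJ1-3 transcript and meis reached 5 CPM in G1 only, and ascl-1 in S/G2/M only. The means of DLL-2, FoxJ1-3 and meis over both gates were under 5 CPM. Members at that level had to differ between gates to pass the filter, and 53.3% of them were lower. The shares called in this list are therefore in part set by the filter.

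Mediator is the complex that links transcription factors to RNA polymerase II, and its subunits were called in both directions. All 10 members passed the filter, with 3 lower (30.0%, against 18.2% of all members), 2 higher (20.0%, against 12.6%) and 5 not called. The list median was 0.21, against 0.07 for all members. Med12, part of the kinase module, was at 80.7 CPM in G1 and 13.0 in S/G2/M (log2 ratio -2.59, interval -3.15 to -2.16), with 127 in RNA-low and 52.4 in PM. Med1 was at 96.7 and 24.9 CPM (-1.94, interval -2.32 to -1.60), and Med23 at 81.9 and 36.2 CPM (-1.17, interval -1.49 to -0.87). In the other direction, Med8 was at 31.4 CPM in G1 and 103 in S/G2/M (1.69, interval 1.45 to 1.98) and Med27 at 15.9 and 43.0 CPM (1.41, interval 1.03 to 1.82). All 5 called subunits kept their call in the 5 other scalings. Med7 (0.86) reached 2-fold with median-of-ratios scaling, and Med31 (0.72), Med19 (0.26), cdk8 (0.16) and Med14 (0.11) did not in any scaling, and the last 3 were below 0 with library totals.

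In the Hedgehog pathway, 5 of 8 named members passed the filter, with 2 called lower (40.0%, against 18.2% of all members) and none higher. Levels of ptc, the Hedgehog receptor gene, were 51.0 CPM in G1 and 22.5 in S/G2/M (log2 ratio -1.17, interval -1.57 to -0.79). Fused, which encodes a kinase of the pathway, was at 37.4 and 13.5 CPM (-1.44, interval -1.97 to -0.97). The signal transducer gene smoothened was at 73.7 and 53.2 CPM (-0.47), the transcription factor gene gli-1 at -0.34 and the inhibitor gene SuFu at 0.16, with SuFu below 0 under both scalings by totals. The list median was -0.47.

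Of the Wnt pathway, 8 of 17 named members passed the filter, of which 2 were called higher and 2 lower, 25.0% each against 12.6% and 18.2% of all members. On the receiving side, the receptor gene Fzd-d was at 13.7 CPM in G1 and 4.34 in S/G2/M (log2 ratio -1.56, interval -2.64 to -0.82). Bcat-1, which encodes a beta-catenin, was at 243 and 116 CPM (-1.06, interval -1.24 to -0.89) and fell short of 2-fold with median-of-ratios scaling (-0.90). The transducer gene dvl-b was at 50.5 and 28.5 CPM (-0.82) and passed 2-fold with library totals (-1.13) and with totals without ribosomal RNA (-1.04). Called higher were sfrp2, of a family of secreted Wnt inhibitors, at 10.3 CPM in G1 and 27.4 in S/G2/M (1.37, interval 0.92 to 1.91), and the ligand gene wntP-3 at 10.9 and 22.9 CPM (1.04, interval 0.56 to 1.58). The ratio of wntP-3 was 0.73 and 0.83 with the 2 scalings by totals. Also not called were the ligand gene wnt11-6 at -0.40, nemo at -0.17 and sfrp-a, of the same family as sfrp2, at 0.20. With library totals sfrp-a was at -0.09. The list median was -0.29.

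Of the cilium genes, 2 of the 6 kept members (33.3%) were called lower and none higher, against 18.2% and 12.6% of all members. The kinesin gene Kif27 was at 38.0 CPM in G1 and 12.7 in S/G2/M (log2 ratio -1.54, interval -2.12 to -1.09). IFT172, of the intraflagellar transport machinery, was at 15.1 and 5.69 CPM (-1.33, interval -2.26 to -0.66). IFT52 (-0.59), IFT88 (-0.38) and Kif3A (-0.10) were not called, nor was Kif3B, whose level was 44.9 CPM in G1 and 76.0 in S/G2/M (0.75). Kif3A and Kif3B encode motor subunits of the same kinesin, and Kif3A turned to 0.05 with median-of-ratios scaling.

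Of the signalling lists outside these pathways, activin had 0 of 4 members called and GTPase regulators 1 of 2. The spondin and LGR4 list had 1 of 4, where 30.8% of all members were called. No member of the activin list was called with TMM, from smad23, a transducer gene, at 53.0 and 28.0 CPM (-0.91) to follistatin, which encodes an activin inhibitor, at 7.40 and 10.1 CPM (0.43). Smad23 passed 2-fold with both scalings by totals, at -1.22 with library totals. Activin-receptor-1 was at -0.46 and activin at -0.34. NF1, which encodes a GTPase-activating protein for Ras, was at 113 CPM in G1 and 31.4 in S/G2/M (-1.82, interval -2.17 to -1.53), whereas the scaffold gene IQGAP was at 40.7 and 60.7 CPM (0.57). Of the spondin and LGR4 list, 1 spondin transcript was lower at 9.00 CPM in G1 and 0.711 in S/G2/M (-2.97, interval -6.85 to -1.85), on 47 reads in S/G2/M, a level under the floor of 3 estimated fragments (0.999 CPM). Another spondin transcript was at -0.20 and LGR4l at -0.09, or 0.06 with median-of-ratios scaling. LGR4 was at 11.5 and 23.3 CPM (0.99) and passed 2-fold with median-of-ratios scaling (1.14), with TMM from the 2 libraries alone (1.03) and with TMM without ribosomal RNA (1.03).

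Among other named transcripts, 3 of 11 kept members (27.3%) were called lower and 2 (18.2%) higher, against 18.2% and 12.6% of all members. Of the FGF receptor-like family, ndk and ndk-4 were called lower, while ndk-3 was not called at 16.3 and 14.1 CPM (-0.20). Levels of ndk were 19.6 CPM in G1 and 5.15 in S/G2/M (log2 ratio -1.83, interval -2.85 to -1.18). For ndk-4 they were 6.54 and 1.89 CPM (-1.56), on 125 reads in S/G2/M, and it passed the filter through G1 only. In planarians ndk restricts brain tissue to the head. Reticulocalbin-1, which encodes a calcium-binding protein of the endoplasmic reticulum, was at 537 and 207 CPM (-1.37, interval -1.502 to -1.25). TMEM194A, which encodes a nuclear envelope protein, was called higher at 15.2 and 33.8 CPM (1.13), and was at 0.82 and 0.91 with the 2 scalings by totals. The dynein regulator gene lis1 was at -0.35.

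Among the tissue and gamma neoblast markers below, NKX2.1 alone was called. The neuronal regulators, given above, were both called lower. The epidermal gene vim-1 was at 16.45 CPM in G1 and 10.7 in S/G2/M (log2 ratio -0.60), far below its 112 CPM in PM. The muscle gene titin, at 2.88 and 0.515 CPM, and the secretory mucin, at 0.185 CPM in G1 and 0 reads in S/G2/M, did not reach 5 CPM in either gate. The intestine genes porcnA, at 73.8 and 134 CPM (0.85), and porcn-B, at 42.8 and 31.4 CPM (-0.44), were not called, although porcnA reached 2-fold with median-of-ratios scaling (1.01). The gamma neoblast marker NXK2.2_Dth-1 had 1255 reads in G1 and 1632 in S/G2/M (0.22), with -0.09 under library totals. NKX2.1 was called lower at 6.49 and 2.94 CPM (-1.03, interval -2.36 to -0.06), and was above -1 with median-of-ratios scaling (-0.89) and TMM from the 2 libraries (-0.99). The log2 ratio of NKX2.1_Dth-2 was 0.05, and -0.26 with library totals. For innexin-1, a gene of gap junction channels, it was -0.51.

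**Figure D4:**
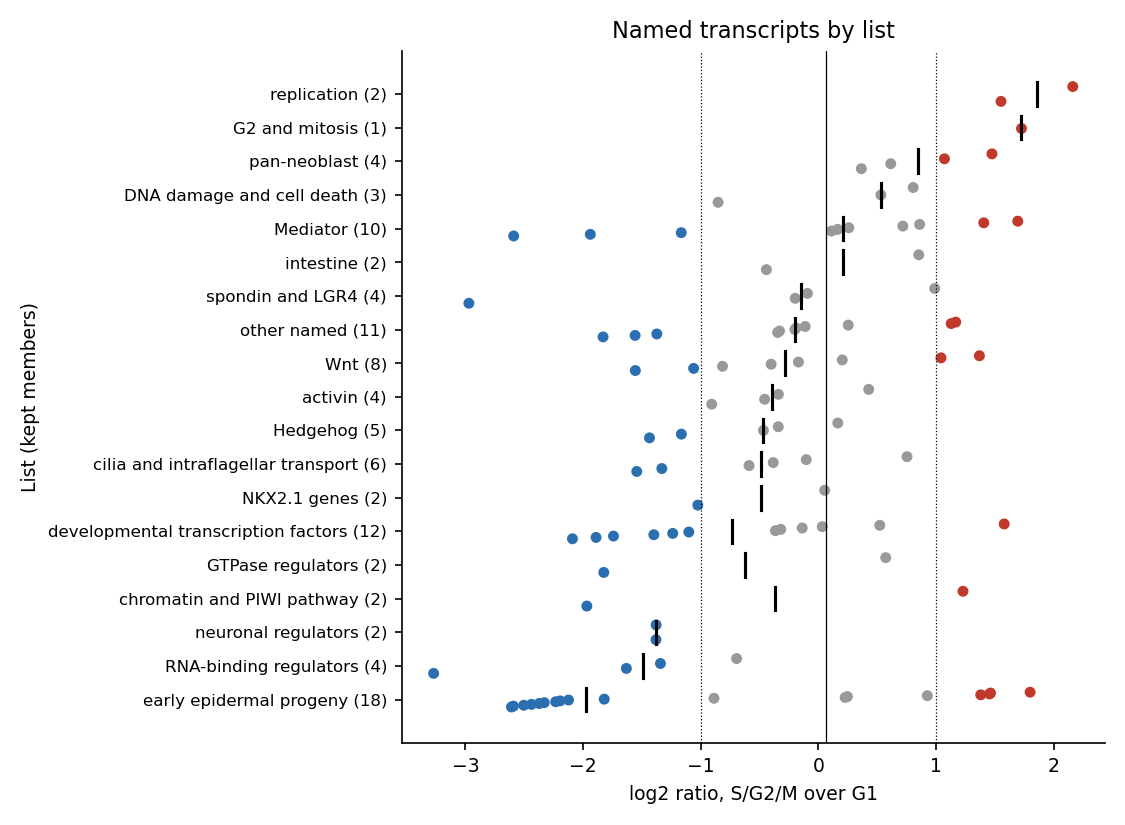
Log2 ratio of S/G2/M over G1 (x axis) for the named members of 19 lists (y axis, kept members in brackets), coloured by call, with black bars at list medians, a thin line at the median of all members and dotted lines at 2-fold. Replication and mitosis genes lie to the right, while Mediator and early epidermal progeny members fall on both sides.

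Taking all named members, 54 of 108 (50.0%) were called, against 30.8% of all members, with 17 (15.7%) higher and 37 (34.3%) lower. Outside the progeny families these were 13 (14.4%) and 27 (30.0%) of 90. The named transcripts are those that carry a name in the table and are not a random sample of the transcriptome. Each of the 108 had the same call on estimated fragments. Across the 4 gates, 16 of the 17 higher members were highest in S/G2/M, ascl-1 being the exception, and 24 of the 37 lower members were lowest there. The remaining 13, lowest in RNA-low, were the 10 progeny transcripts called lower, Kif27, DLL-2 and reticulocalbin-1. Among all called transcripts, S/G2/M was highest for 93.6% of the higher and lowest for 85.8% of the lower ones. Over all members S/G2/M was highest for 40.3% and lowest for 30.7%, and the call itself favours these positions.

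The ribosomal RNAs changed their proportion. The transcript named 16S took 14.5% of reads in G1 and 20.1% in S/G2/M, and the larger of the 2 transcripts named 28S took 2.33% and 1.76%. Reads of 16S per read of that 28S transcript were 6.20 in G1, 11.4 in S/G2/M, 3.69 in RNA-low and 16.0 in PM. The log2 ratio was 0.79 for 16S and -0.09 and 0.08 for the 28S transcripts, none of them called, and the 28S ratios changed sign between scalings.

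Most members carry no gene name. Named transcripts were 6 of the 500 highest and 7 of the 500 lowest ratios, where they were 108 of all 11895 members. There were 65 members with 0 reads in S/G2/M and 1 with 0 reads in G1, and the 65 carried no name. The 65 stood at 5.01 to 26.7 CPM in G1, which at a floor of 3 fragments in S/G2/M (0.999 CPM) made them at least 5.02-fold to at least 26.7-fold lower. In CPM, the largest gains among unnamed transcripts were SmedASXL_016807, from 13145 in G1 to 18946 in S/G2/M (log2 ratio 0.53, not called), and SmedASXL_010555, from 3995 to 9459 (1.24). The largest losses were SmedASXL_071504, from 1100 to 293 CPM (-1.91), and SmedASXL_006771, from 1260 to 525 CPM (-1.26).

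The direction of calls moved with the level of a transcript. Of 2213 members with a mean of 5 to 10 CPM over both gates, 13.2% were higher and 24.4% lower. Between 20 and 50 CPM the shares were 11.7% and 11.5% of 3216, and between 200 and 1000 CPM they were 14.3% and 4.85% of 474. The median log2 ratio went from -0.15 at 5 to 10 CPM through 0.10 at 20 to 50 CPM to 0.69 in the 115 members over 1000 CPM. The 1188 members with a mean under 5 CPM had to differ between gates to pass the filter, and 53.3% of them were lower. The same libraries differed in transcripts detected and in estimated fragments, as given above, and the part of those differences in this pattern was not tested. At the filter itself, 83 members from 5 to 5.1 CPM in their higher gate had a median log2 ratio of -0.49, and 96 transcripts from 4.9 to 5 CPM, just outside, had -0.52.

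**Figure D5:**
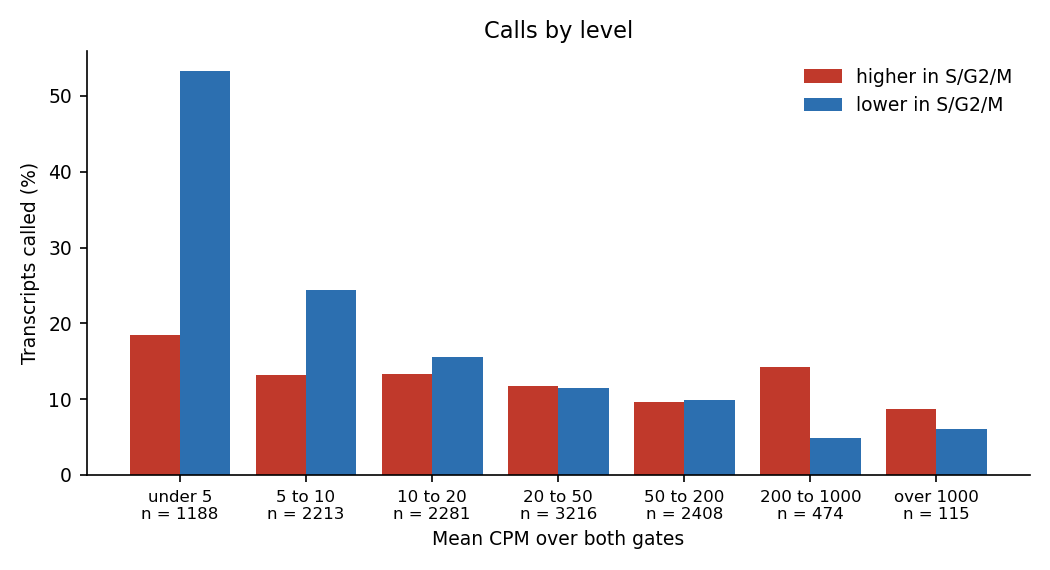
Share of members called (y axis, percent) by their mean CPM over both gates (x axis, number of members under each bin), with higher in red and lower in blue. Lower calls exceed higher ones below 20 CPM, the shares are alike from 20 to 200 CPM, and higher calls exceed lower ones above 200 CPM.

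Called transcripts accounted for a limited part of the reads. Without ribosomal RNA, the 1499 higher members took 15.7% of the summed member levels for S/G2/M and 7.42% for G1. The lower members took 3.79% in S/G2/M and 15.1% in G1, of which the progeny families held a large part in G1 at 29438 of 109489 CPM. Members not called took 80.5% and 77.5%. The 100 most abundant members of each library held 30.0% of this sum for S/G2/M and 26.1% for G1.

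The 2 gates outside the comparison gave a further readout. The 1499 higher transcripts had median levels of 7.61 CPM in RNA-low and 7.19 in PM, near their 9.12 in G1 and below the 25.2 of S/G2/M. S/G2/M was the highest of the 4 gates for 1403 of them (93.6%), against 40.3% of all members. The 2169 lower transcripts had a median of 3.45 CPM in S/G2/M, against 13.9 for G1, 13.5 for RNA-low and 14.7 for PM, and S/G2/M was the lowest gate for 1862 (85.8%), against 30.7% of all members. Because the calls were made on the S/G2/M level, these shares are in large part set by the call and are given as a description. With 1 library, a property of the gate and of the library cannot be told apart. RNA-low and PM entered the calls through the TMM factors alone. The median log2 ratio of RNA-low over PM was 0.33 for higher, 0.33 for lower and 0.38 for uncalled transcripts, against 0.36 for all members. The spread differed more. Of lower transcripts, 23.2% were at least 2-fold up in RNA-low and 18.9% in PM. For higher transcripts these shares were 16.8% and 13.1%, and for uncalled ones 12.2% and 9.12%. Levels differed too. Without ribosomal RNA, the median CPM over S/G2/M and G1 was 8.63 for lower transcripts, 17.3 for higher and 26.8 for uncalled ones. The part of level in this spread was not tested.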

How the data were processed

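Whole-number read counts per transcript were used as deposited by the authors, not normalized, for 4 bulk libraries whose RNA was isolated in Trizol and built into TruSeq libraries, per the labels' protocols. Per the submitters' processing notes, bcl2fastq 1.8.3 and Bowtie2 were run. For the counter and the reference, the sources used here give no name. Bulk counts under the heading G0 were assigned to RNA-low, because the RNA-low single-cell columns also begin with G0. The 96 single cells were not used here. TMM factors were computed over the 4 libraries in edgeR 4.0.16 under R 4.3.3, and median-of-ratios factors in DESeq2 1.42.0. Ratios and exact conditional binomial intervals were computed with scipy 1.17.1. Calls and intervals on reads were tested on counts simulated without repeated reads of a fragment. The printed intervals on fragments were not tested in this way. The CPM filter, 0.5 CPM pseudocount and 2-fold threshold are given with the results. Neither edgeR nor DESeq2 could test 1 library against 1. Members and lists were chosen with earlier results of these data known, and the lists took in all 163 named transcripts. Up to 6 members per list with the largest absolute log2 ratio were named, plus piwi-1, PCNA, mcm2 and CyclinB2. Others, where a count of 5 or fewer or a relative of a named member called for it, were chosen after their values were seen. Fragment numbers are the library total divided by the most frequent read count, and intervals and floors cover counting error only. Alternatives were 5 other scalings, 3 filters, 2 pseudocounts, intervals on fragments, and 1.5-fold and 4-fold thresholds. Transcript sequences were not used here, and the values of 1 named transcript are not reported here.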

Additional observations from a re-analysis of the deposited data

How the results depend on the processing

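The number of transcripts called higher in S/G2/M was 1499 and that called lower 2169. Library totals gave 758 higher and 3126 lower, and of the 5 other scalings this was the only one to move the higher count by over 1.5 times. Totals without ribosomal RNA gave 1037 and 3233, median-of-ratios scaling 2116 and 1814, TMM from the 2 libraries alone 1630 and 2033, and TMM without ribosomal RNA 1815 and 2520. A filter of 1 CPM gave 2952 and 6940, no filter 4018 and 11214, and 50 CPM 446 and 404, where the number of transcripts entering was 24061, 55448 and 3633. A 4-fold threshold gave 153 and 769, and 1.5-fold gave 3337 and 3274. Pseudocounts of 0.1 and 2 CPM gave 1581 and 1205 higher, with 2246 and 1867 lower, and intervals on estimated fragments 1496 and 2163. No call of the 108 named transcripts reversed in any of the scalings or pseudocounts. Library totals took 5 of their 54 calls and added 5, and median-of-ratios scaling took 3 and added 4. No paired analysis was possible because each gate has 1 library, and no library could be left out. Having 1 library per gate limits every comparison. Depth limits transcripts near the floor of 3 fragments, such as the 65 with 0 reads in S/G2/M, and 9 calls differed on estimated fragments.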

Other observations

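Of the 163 named transcripts, 55 stayed below 5 CPM in both gates and entered no comparison, and 22 of these were at or under the floor of 3 fragments in both. For 16 there were 0 reads in S/G2/M and for 4 there were 0 reads in G1, 2 of them in both. The Wnt ligand gene wnt11-1 had 167 reads in G1 and 68 in S/G2/M, and wnt2-1 had 95 and 14. The Wnt inhibitor gene notum had 167 reads in G1 and 279 in S/G2/M. Of the hairy and enhancer of split-like genes, hesl-3 was just below the filter with 125 reads in G1 and 316 in S/G2/M, and hesl-1 had 43 and 221 reads. The neural transcription factor gene nerfin-2 had 93 reads in G1 and 21 in S/G2/M, and lmx2, a homeobox gene, had 53 and 0. These transcripts were chosen after their values were seen, and no direction is drawn from them.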
